A study of Rattus norvegicus with 30 samples.

Results

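The regions described here are broad domains of histone H4 acetylated at lysine 16 (H4K16Ac) that were called in the embryo brain cortex of one maternal diet and had no counterpart in the other. A domain is an interval of at least 1000 bp in the H4K16Ac peak list of a diet. It was chosen by its position in these lists, and taken as control-only when no interval of any width in the H4K16Ac list of the high-fat diet (HFD) overlapped it by 1 bp or more, and as HFD-only when the same held in the other direction. This gave 6142 control-only domains among 71193 control domains (8.63%) and 6823 HFD-only domains among 69116 HFD domains (9.87%), 12965 of 140309 in all. The other domains, 65051 in the control list and 62293 in the HFD list, are called shared domains.

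The libraries came from Wistar rat embryos at E14.5, whose mothers received normal chow (control) or, after weaning, a diet with 60% of its calories from fat, 20% from protein and 20% from carbohydrate (HFD), before and during pregnancy. Once the HFD females were obese compared with the control females, both groups were mated with healthy males kept on chow, and the frontal cortices of a whole litter were pooled for each replicate, with no sex of the embryos given. Chromatin was precipitated with 5 antibodies, H4K16Ac, H3K4me3, H3K27me3, total H3 and pan H4, with 3 libraries for each antibody and diet, 30 in all. The authors called 1 peak list on the 3 libraries together, so the diets are compared here through 10 lists, without any measure of how far replicates of a diet differ.

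Acetylation of H4 at lysine 16, placed mainly by the acetyltransferase MOF (KAT8), removes a positive charge from the H4 tail and loosens the packing of nucleosomes. It is found at promoters, gene bodies and enhancers of active genes. H3K4me3 sits at active promoters, H3K27me3 is placed by the Polycomb enzyme EZH2 on silenced developmental genes, and the antibodies against total H3 and pan H4 report nucleosomes whatever their modification.

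The background pileup of a list was 1.61 fragments per base in control H4K16Ac and 1.75 in HFD H4K16Ac. It depends on the reads behind the list and also on calling options and input, which are not given. The HFD background was 108.6% of the control background for H4K16Ac, 111.2% for total H3, 109.6% for pan H4, 87.69% for H3K4me3 and 39.85% for H3K27me3. One total H3 library, replicate 3 of control by its title, also bears the other diet in its labels, and it could not be separated from the control list. Intervals given with shares are 95% Wilson intervals, those given with differences of shares are 95% Newcombe intervals, and both cover counting error only. Every region is given by its position on the rat genome build rn6, and no gene annotation of that build was used here.

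The one-diet domains were the weak and narrow end of the H4K16Ac lists. The median −log10 q, the list's own measure of how firmly a domain was called, was 1.20 in control-only domains and 0.946 in HFD-only domains, against 2.76 and 3.06 in the shared domains of the control and HFD lists. The median fold enrichment over the local background was 2.49 and 2.35, against 3.01 and 3.08. The median width was 1360 bp in control-only and 1349 bp in HFD-only domains, against 1718 and 1680 bp in shared domains. A q of at most 0.05 was reached by 2729 control-only domains (44.4%) and 2005 HFD-only domains (29.4%), against 89.6% and 89.4% of the shared domains. The rule used these same lists, so the values describe the members and carry no test.

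The share of domains found in one diet went with strength and width. Both come from the lists that the rule used, and a wider domain has more bases at which an overlap can fall. The shares are therefore a description. When the domains of each list were divided into deciles by −log10 q, 38.4% of the weakest decile of the control list and 52.0% of the weakest decile of the HFD list were one-diet domains. In the strongest decile these shares were 0.0421%, 3 of 7120 domains, in the control list and 0.0145%, 1 of 6912, in the HFD list. By width, the share went from 14.2% (control) and 16.3% (HFD) in the narrowest band, which starts at 1000 bp, to 0.0787% and 0.469% among those of 5000 bp or more. Few members stood above the rest, with 23 of 14510 control domains and 21 of 16626 HFD domains of −log10 q of at least 5, and 2 and 1 members of at least 10.

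**Figure D1:**
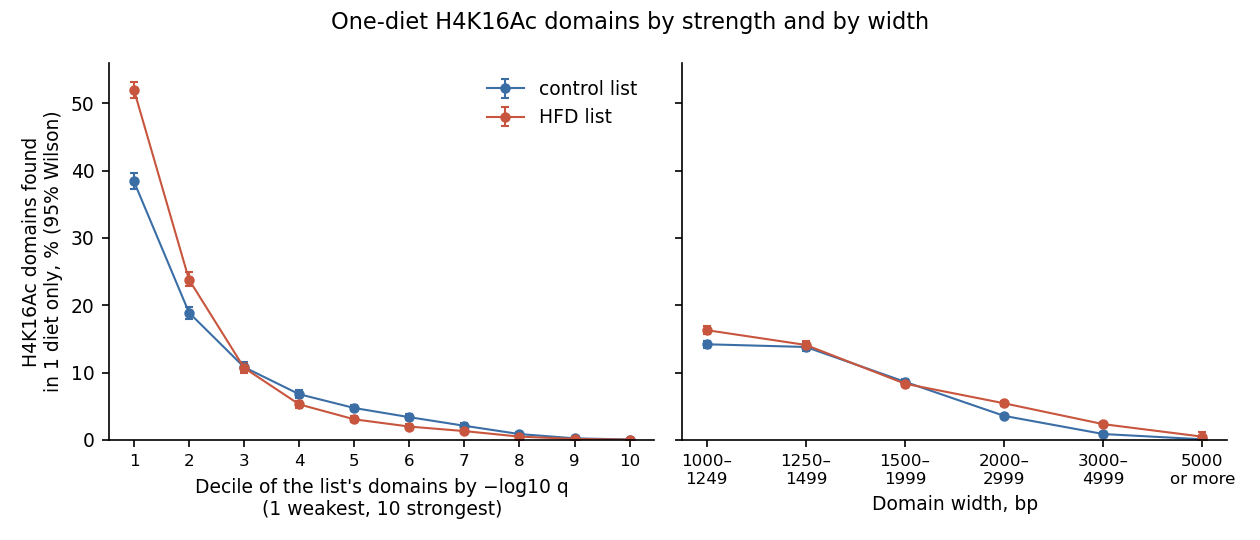
Share of H4K16Ac domains found in 1 diet only (percent, with 95% Wilson intervals) by decile of −log10 q (left) and by width in bp (right), for the control list (blue) and the HFD list (red). The share goes from 38.4% and 52.0% in the weakest decile to under 1% in the 8th decile and above, and from 14.2% and 16.3% in the narrowest band to under 1% in the widest.

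By the rule no member overlapped an H4K16Ac interval of the other diet, and HFD-only domains lay farther from such intervals than control-only domains. The median distance to the nearest such interval was 3234 bp for control-only domains (quartiles 1790 and 6479 bp) and 5220 bp for HFD-only domains (quartiles 2100 and 14080 bp). It was over 10000 bp for 896 control-only domains (14.6%) and 2223 HFD-only domains (32.6%), and under 1000 bp for 325 (5.29%) and 365 (5.35%). In each group 7 members lay on sequences without any interval of the other diet. These distances come from the lists that the rule used, and the part of local interval density in them was not tested.

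Some intervals lay just inside or just outside the limits of the rule. Among intervals with no overlap in the other diet, 434 control and 604 HFD intervals missed the width limit by at most 50 bp, next to 464 and 551 members that exceeded it by less than 50 bp. The control-only domain at chr5:150786338-150787482 (−log10 q 1.19) ended 5 bp from an HFD interval, and the control domain at chr6:8925082-8927457 (−log10 q 1.30) counted as shared through 1 bp. The HFD-only domain at chr2:261180698-261182230 (−log10 q 0.639) lay 2 bp from a control interval, and the HFD domain at chr10:107887159-107888241 (−log10 q 0.420) was shared through 1 bp. Such cases were few, since 30 control-only and 45 HFD-only domains lay within 100 bp of the other diet, and 76 and 94 shared domains overlapped it by less than 100 bp.

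The lists of the other 4 antibodies come from libraries that the rule did not use, and one-diet domains were overlapped by them less often than the domains of the same list as a whole. Pan H4 was the most frequent. Its own-diet list overlapped 2828 control-only domains (46.0%, 44.8% to 47.3%) and 3229 HFD-only domains (47.3%, 46.1% to 48.5%), against 86.3% of all control and 89.0% of all HFD domains. Its other-diet list overlapped 33.2% of control-only and 33.0% of HFD-only domains, against 88.1% and 84.2% of all domains. Total H3 followed, with the own-diet list at 35.0% of control-only and 37.0% of HFD-only domains against 84.0% and 84.7% of all. The other-diet list of total H3 overlapped 26.5% and 18.3%, against 83.8% and 80.8%. Fewer than 50% of members thus had a total H3 interval in their own diet, and fewer than 50% a pan H4 interval, where most H4K16Ac domains had one.

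H3K4me3, the promoter mark, was less frequent at members than total H3 and pan H4. The control H3K4me3 list overlapped 1121 control-only domains (18.3%, 17.3% to 19.2%) and the HFD list 650 (10.6%, 9.84% to 11.4%), against 63.8% and 61.5% of all control domains. At HFD-only domains the HFD list overlapped 1641 (24.1%, 23.1% to 25.1%) and the control list 1010 (14.8%, 14.0% to 15.7%), against 63.7% and 62.9% of all HFD domains. An H3K4me3 interval of either diet lay over 26.0% of control-only and 32.6% of HFD-only domains, against 80.6% and 81.2% of shared domains. Members far from any H3K4me3 interval, by more than 10000 bp, were 963 control-only (15.7%) and 1565 HFD-only domains (22.9%), against 2.63% and 3.03% of shared domains. HFD-only domains therefore held a larger share of members with H3K4me3 and also a larger share of members far from it than control-only domains.

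H3K27me3, the Polycomb mark, was rare at members. Its control list overlapped 288 control-only domains (4.69%) and its HFD list 275 (4.48%), against 43.7% and 32.0% of all control domains. HFD-only domains were overlapped by the control list in 586 cases (8.59%) and by the HFD list in 480 (7.04%), against 44.6% and 33.1% of all HFD domains. The HFD H3K27me3 list rested on a background pileup of 0.351 fragments per base, against 0.880 in control, and the part of this in the overlaps was not tested.

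**Figure D2:**
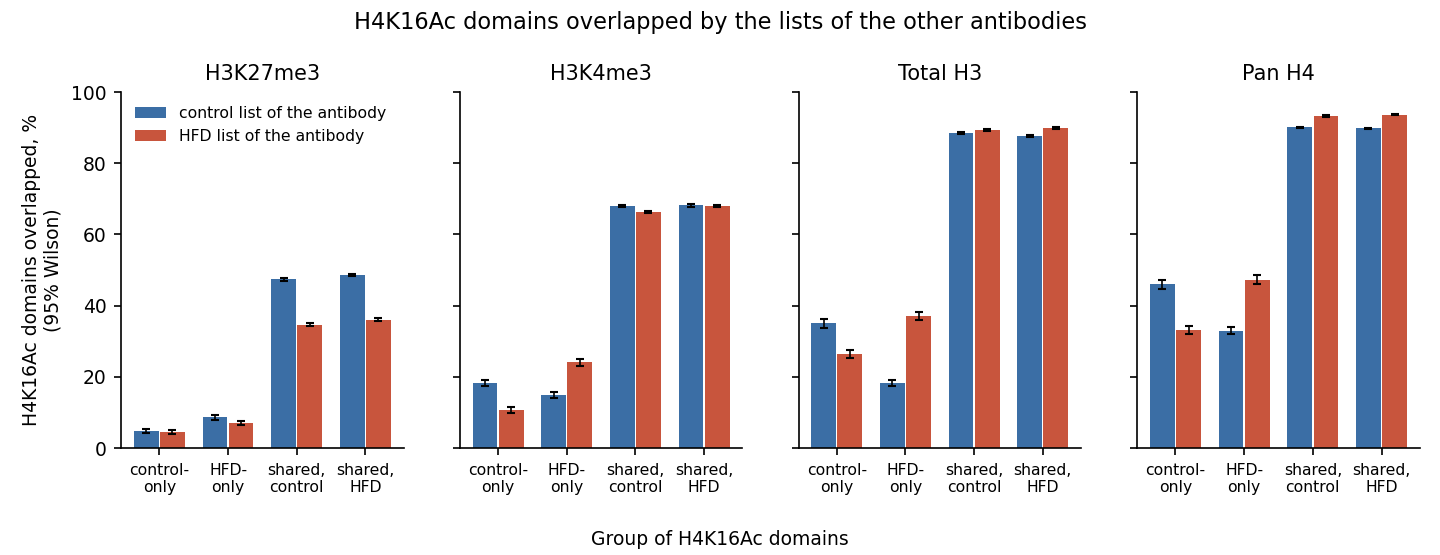
Share of H4K16Ac domains overlapped by at least 1 bp (percent, bars from 0, with 95% Wilson intervals) by the control (blue) and HFD (red) list of each other antibody, for control-only, HFD-only and shared domains. For H3K4me3, total H3 and pan H4 the own-diet bar is the higher one in both one-diet groups, and all of these bars stay under 50%, while those of shared domains lie at 66.3% or more.

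Within the deciles of −log10 q and the width bands compared, one-diet domains were still overlapped less often than shared domains. The groups were not matched within a decile, and the part of strength in the gap was not tested. In the weakest decile of the control list by −log10 q, the control pan H4 list overlapped 34.8% of 2736 control-only and 63.6% of 4384 shared domains. In the weakest decile of the HFD list the HFD pan H4 list overlapped 31.2% of 3594 HFD-only and 59.4% of 3318 shared domains. For H3K4me3 the own-diet list overlapped 366 (13.4%) and 1361 (31.0%) in control, and 575 and 820 in HFD. Stronger members had more company, as 61.3% of the 483 control-only and 71.2% of the 364 HFD-only domains of the 4th decile had an own-diet pan H4 interval, against 88.1% and 93.9% of shared domains there. Among the 631 control-only and 979 HFD-only domains of 2000 bp or more, own-diet H3K4me3 overlapped 26.6% and 45.0%, against 74.2% and 75.9% of shared domains of that width.

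Many members stood alone. No interval of the other antibodies in either diet touched 1556 control-only domains (25.3%) and 1953 HFD-only domains (28.6%), against 0.915% and 0.938% of shared domains. No own-diet interval touched 2232 (36.3%) and 2629 (38.5%), against 3.24% and 2.90%. At the other end, the own-diet lists of all 4 antibodies overlapped 56 control-only (0.912%) and 140 HFD-only domains (2.05%), against 40.7% and 31.6% of shared domains.

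Where an antibody had an interval in the list of 1 diet alone, that diet was mostly the diet of the H4K16Ac domain, save for H3K27me3. H3K4me3 overlapped 1421 control-only domains in 1 diet alone, and the HFD list accounted for 475 of them (33.4%, 31.0% to 35.9%). At HFD-only domains it accounted for 1216 of 1801 (67.5%, 65.3% to 69.6%), a difference of 34.1 percentage points (30.8 to 37.3). For total H3 the HFD share was 784 of 2092 (37.5%) at control-only and 1864 of 2452 (76.0%) at HFD-only domains, a difference of 38.5 points (35.8 to 41.2). For pan H4 it was 768 of 2326 (33.0%) and 1693 of 2408 (70.3%), a difference of 37.3 points (34.6 to 39.9). Over all HFD domains the HFD share for pan H4 was 68.5%, close to that of the HFD-only domains, so that for this antibody it was the control-only domains that stood apart, against 57.1% over all control domains. For total H3 the shares over all control and all HFD domains were 49.6% and 62.4%, and for H3K4me3 45.7% and 51.4%. The size of the difference turned on the threshold, since among intervals of −log10 q of at least 5 it was 69.9 points for H3K4me3 (51.6 to 80.4), 32.5 for total H3 (25.2 to 39.4) and 16.9 for pan H4 (11.9 to 21.8).

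H3K27me3 did not share this pattern. Its HFD list accounted for 255 of 523 one-diet overlaps at control-only domains (48.8%, 44.5% to 53.0%) and for 365 of 836 at HFD-only domains (43.7%, 40.3% to 47.0%), a difference of −5.10 points (−10.5 to 0.343), an interval that includes 0. Among H3K27me3 intervals with q of at most 0.05 the difference was 9.58 points (−2.12 to 19.5), so that its sign turned with the threshold. In shared domains the HFD share of one-diet overlaps of H3K27me3 was 27.8% in the control list and 28.1% in the HFD list. For the other antibodies the shared domains gave 46.7% and 49.6% (H3K4me3), 52.6% and 58.4% (total H3), and 65.1% and 67.9% (pan H4), between the control-only and the HFD-only value in each case.

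**Figure D3:**
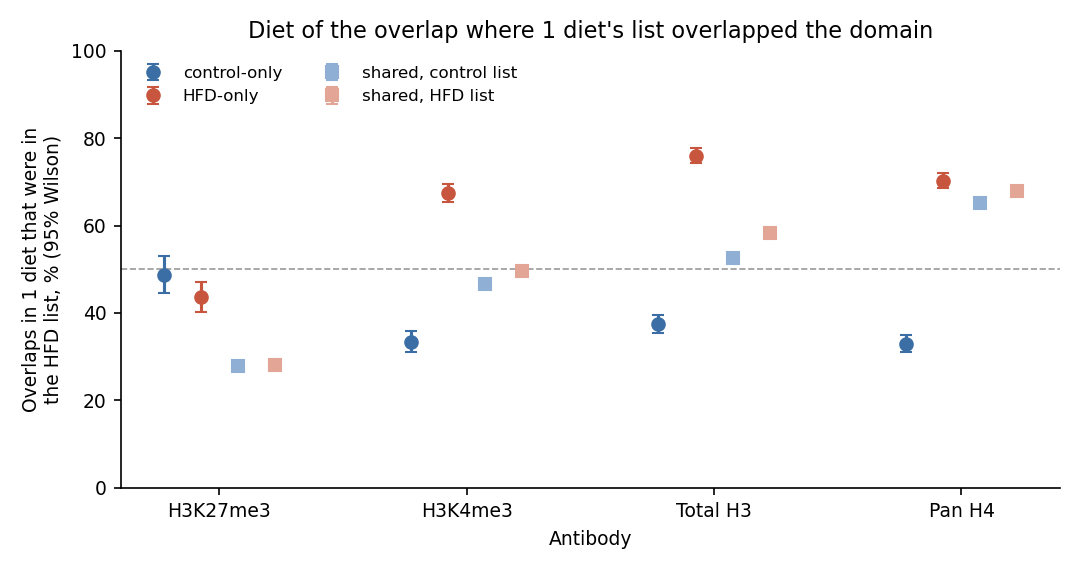
Of the H4K16Ac domains overlapped by an antibody's list in exactly 1 diet, the percent in which that list was the HFD list (with 95% Wilson intervals), for control-only, HFD-only and shared domains, with a dashed line at 50%. Control-only and HFD-only domains lie apart by 34.1 to 38.5 points for H3K4me3, total H3 and pan H4 and overlap in their intervals for H3K27me3.

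Where both diets had an interval of an antibody, each was ranked by its −log10 q within its own list, as a percentile. The lists differ in length and background pileup, so the shares of members are read beside those of shared domains. The HFD H3K4me3 interval ranked higher at 68 of 175 control-only domains (38.9%, 31.9% to 46.2%) and at 248 of 425 HFD-only domains (58.4%, 53.6% to 62.9%), against 45.7% and 46.4% of the shared domains of the control and HFD lists. For total H3 it ranked higher in 41.7% of 841 control-only and 58.8% of 660 HFD-only domains, against 53.1% and 53.3%. For pan H4 it did so in 35.2% of 1270 and 43.7% of 1536, both below the 53.5% and 53.4% of shared domains. For H3K27me3 it did so at 15 of 20 control-only and 87 of 115 HFD-only domains (75.7%), both above the 39.5% and 41.7% of shared domains. The groups thus lay on either side of the shared domains for H3K4me3 and total H3, and on the same side for pan H4 and H3K27me3.

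Members with several antibodies in step were uncommon. An own-diet interval with no other-diet interval was found for 3 of the 4 antibodies at 134 control-only (2.18%) and 280 HFD-only domains (4.10%), and for all 4 at 4 and 13. The opposite arrangement, with intervals in the other diet alone, was found for 3 antibodies at 40 (0.651%) and 34 (0.498%), and for all 4 at 0 control-only domains and 1 HFD-only domain. In shared domains of the control list, a control interval alone was found for 3 antibodies at 0.427% and an HFD interval alone at 0.621%. In shared domains of the HFD list, an HFD interval alone was found for 3 antibodies at 0.783%.

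The strongest control-only domain was at chr3:174539864-174541124. It was 1261 bp wide, with a fold enrichment of 9.74 and a −log10 q of 41.6, and the nearest HFD H4K16Ac interval lay 4016 bp away. Control lists also held H3K4me3 (−log10 q 41.9), total H3 (102) and pan H4 (102) there, and the HFD lists held total H3 (115) and H3K27me3 (7.90) but neither H3K4me3 nor pan H4. Its H4K16Ac value thus stood far above every other control-only domain, of which the next was chr6:42044225-42045699 with a −log10 q of 11.0. That domain had total H3 (16.9) and pan H4 (23.7) in control and none of the other 4 antibodies in HFD. The third, chr5:61869762-61870837, with a −log10 q of 9.43, overlapped control H3K4me3 alone (8.89).

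Among HFD-only domains the strongest was chr9:65731942-65733436. It was 1495 bp wide, with a fold enrichment of 6.76 and a −log10 q of 12.7, and lay 17908 bp from the nearest control H4K16Ac interval. It overlapped H3K4me3 (−log10 q 18.5) and pan H4 (30.5) in HFD alone and total H3 in both diets (22.1 in control and 22.6 in HFD). Like the strongest control-only domain, it thus had total H3 at a similar level in both diets, and H3K4me3 and pan H4 in its own diet only. The next, chr11:6385619-6387033 with a −log10 q of 7.86, overlapped pan H4 at 1.97 in control and 9.01 in HFD and H3K4me3 at 2.29 and 3.53. By contrast, chr2:157246227-157247584, with a −log10 q of 7.34, overlapped no interval of the other 4 antibodies.

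The 5 widest members had a −log10 q of 0.712 to 1.44 in control-only and 0.675 to 1.28 in HFD-only domains. These ranges hold the group medians, 1.20 and 0.946, and lie below the medians of shared domains, 2.76 and 3.06. The widest control-only domain, chr2:8828-14147, spanned 5320 bp near the start of the chromosome's sequence with a −log10 q of 0.712, and an HFD H4K16Ac interval lay 56 bp away. It overlapped H3K4me3 in both diets (1.83 in control and 1.89 in HFD) and total H3 and pan H4 in HFD alone (1.33 and 1.57). The other control-only domains among the widest 5 spanned 4155 to 4346 bp. The widest HFD-only domain, chr10:6302126-6307731, spanned 5606 bp with a −log10 q of 0.740, and overlapped pan H4 in both diets (1.22 in control and 2.49 in HFD). The third in width, chr11:16497993-16503432, spanned 5440 bp, lay 37639 bp from control H4K16Ac and overlapped H3K4me3 in HFD alone (4.36). The rest of the widest 5 lay on chromosomes 12 and 13 and on an unplaced scaffold, at 5243 to 5478 bp.

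Among members with own-diet intervals alone for at least 3 antibodies, the widest HFD-only domain was chr14:70235860-70240053. It spanned 4194 bp and overlapped H3K4me3 (−log10 q 0.841), total H3 (4.86) and pan H4 (2.33) in HFD and no other-antibody interval in control. The domain at chr14:66634208-66638107, of 3900 bp, had the same arrangement at 1.12, 3.18 and 3.94, and was 66302 bp from control H4K16Ac. On the control side, chr5:24370069-24373602 spanned 3534 bp and overlapped H3K4me3 (0.931), total H3 (4.27) and pan H4 (5.17) in control and none of the other antibodies in HFD. The H4K16Ac −log10 q of these was 0.604, 1.08 and 2.12, below the medians of shared domains (3.06 in the HFD list and 2.76 in the control list). The values 1.08 and 2.12 were above the medians of their own groups, 0.946 (HFD-only) and 1.20 (control-only).

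The groups were placed differently along the genome. On chromosomes 1 to 20 there were 6066 control-only and 6377 HFD-only domains, an HFD-only to control-only ratio of 1.05, and the ratio was above 1 on 14 of these chromosomes and below 1 on 6. It was lowest on chromosomes 12 (0.587), 10 (0.622), 19 (0.646), 8 (0.737) and 20 (0.799), and highest on chromosome 2 (1.62), where 433 control-only and 701 HFD-only domains lay. On chromosome X there were 57 control-only domains, 4.81% of the 1185 control domains (3.73% to 6.18%), and 301 HFD-only domains, 17.8% of 1695, a ratio of 5.28. With q of at most 0.05 in both H4K16Ac lists the X ratio was 2.06.

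**Figure D4:**
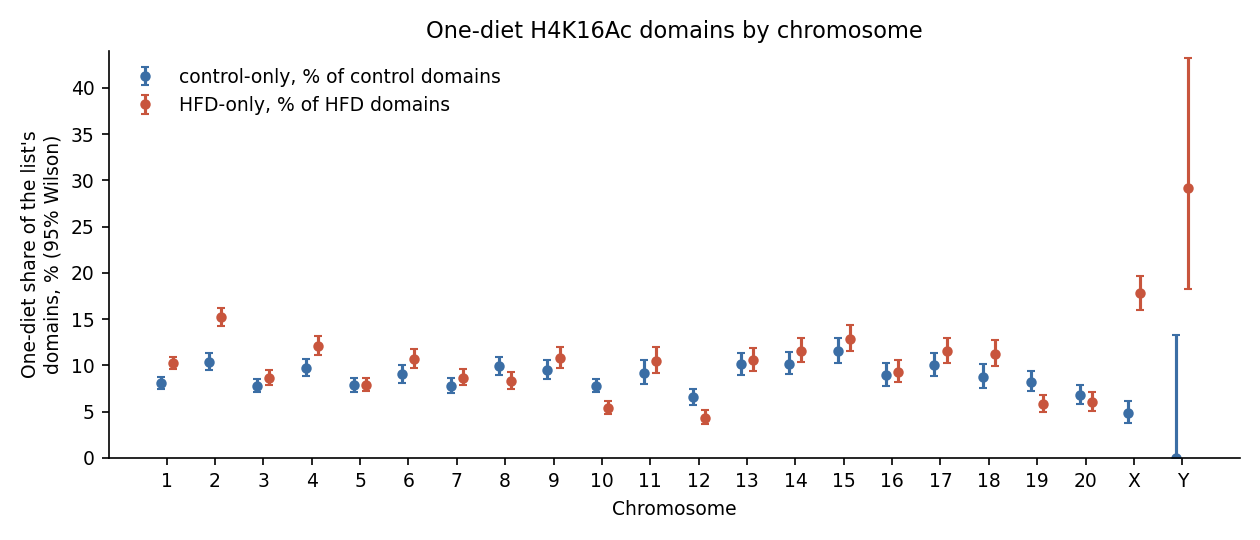
Share of H4K16Ac domains found in 1 diet only (percent of the list's domains on that chromosome, with 95% Wilson intervals), control-only in blue and HFD-only in red. Chromosome X stands out with 4.81% and 17.8%, and chromosomes 8, 10, 12, 19 and 20 have the higher share in control. Chromosome Y, with only 25 control and 48 HFD domains, has 0% and 29.2%.

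Chromosome X carried more intervals in HFD for other antibodies as well. The number of X intervals in the HFD list over that in the control list was 1.42 for total H3, 1.27 for pan H4, 1.24 for H3K4me3 and 1.16 for H4K16Ac of any width, against 1.04, 0.994, 0.945 and 1.00 on chromosomes 1 to 20. For H3K27me3 the ratio was 0.814 on X and 0.853 on chromosomes 1 to 20. Intervals of any width found in 1 diet were also more numerous in HFD on X as a whole. They numbered 654 in control and 2075 in HFD for total H3, 784 and 1405 for H3K4me3, and 941 and 2195 for pan H4. At the 301 HFD-only domains of X the HFD share of one-diet overlaps was 90.1% for total H3 (84.3% to 93.9%), 86.5% for H3K4me3 and 82.8% for pan H4. At the 57 control-only domains of X, total H3 overlapped 12 in the HFD list alone and 5 in the control list alone (70.6%, 46.9% to 86.7%), and pan H4 18 and 9 (66.7%), so that those members did not lean to control. The sex of the pooled embryos is not given in the labels, and its part in the X counts was not tested. Without X, Y and the unplaced sequences, the difference between the groups was 36.4 points for pan H4, 37.7 for total H3 and 32.8 for H3K4me3.

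The balance of the groups changed with the density of H3K4me3. Windows of 1 Mb on chromosomes 1 to 20 were divided into quintiles by their number of H3K4me3 intervals, from 4 to 24 intervals in the poorest to 91 to 196 in the richest. Control-only domains numbered 193, 422, 989, 1867 and 2595 from the poorest to the richest quintile, and HFD-only domains numbered 910, 1299, 1313, 1388 and 1467. The HFD-only to control-only ratio went in that order through 4.72, 3.08, 1.33 and 0.743 to 0.565. As a share of the H4K16Ac domains there, HFD-only domains went from 24.7% (23.3% to 26.1%) in the poorest quintile to 4.45% (4.24% to 4.68%) in the richest, and control-only domains from 8.38% (7.32% to 9.58%) to 6.93% (6.67% to 7.19%), with their highest share, 11.7%, in the middle quintile. The richest quintile held 37459 control and 32942 HFD domains in all, against 2303 and 3682 in the poorest, so that both groups had their lowest share where domains were most numerous.

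With q of at most 0.05 in both H4K16Ac lists the ratio was 2.14 in the poorest quintile and 0.877 in the richest. Intervals of any width found in 1 diet had a higher HFD to control ratio in the poorest than in the richest quintile for each of the 5 antibodies. From the poorest quintile to the richest, the ratio for H4K16Ac was 2.03, 1.62, 1.03, 0.768 and 0.715, and for H3K27me3 0.993, 0.954, 0.903, 0.772 and 0.598, lower at each step. For total H3 it was 2.39, 1.90, 1.25, 0.942 and 0.963, for H3K4me3 1.21, 1.12, 0.876, 0.778 and 0.840, and for pan H4 1.56, 1.27, 0.823, 0.732 and 1.10. These 3 antibodies thus had their lowest ratio in the 4th quintile. The HFD lists had the higher background pileup for H4K16Ac, total H3 and pan H4 and the lower one for H3K4me3 and H3K27me3. The part of this difference in the ratios was not tested.

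**Figure D5:**
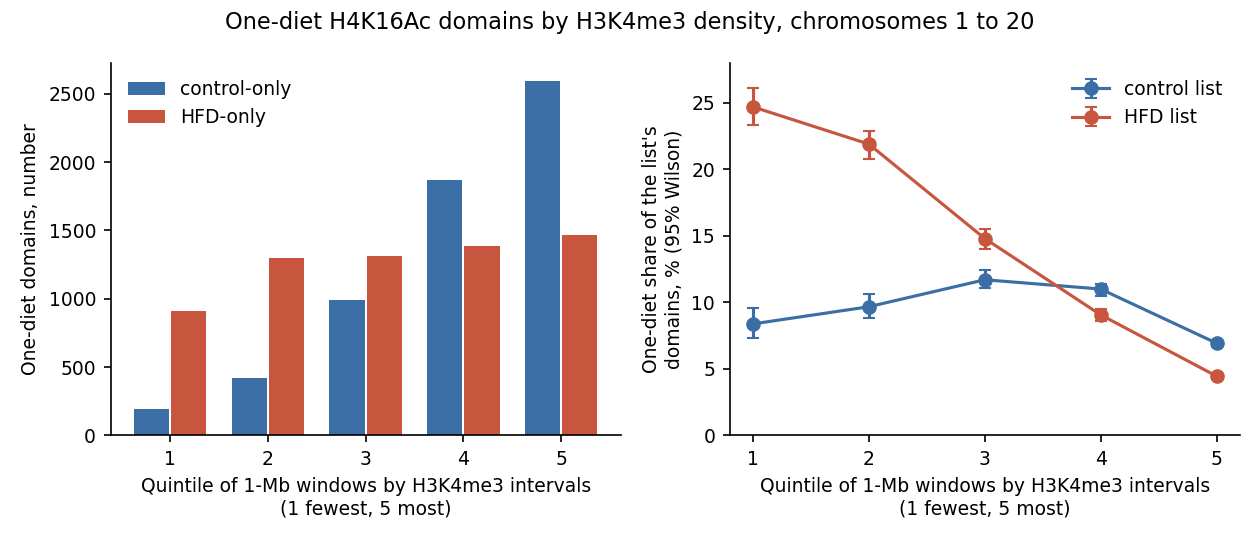
One-diet H4K16Ac domains in 1-Mb windows of chromosomes 1 to 20 by quintile of H3K4me3 intervals, as numbers (left) and as percent of the list's domains with 95% Wilson intervals (right). Control-only domains rise from 193 to 2595 and HFD-only domains from 910 to 1467, while the HFD-only share goes from 24.7% to 4.45%.

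The HFD share of one-diet overlaps differed between the groups in the same direction within each quintile for H3K4me3, total H3 and pan H4. For H3K4me3 the HFD share of one-diet overlaps was higher at HFD-only than at control-only domains by 40.4, 40.7, 37.9, 26.7 and 15.8 points from the poorest to the richest quintile. For total H3 the differences were 51.5, 45.5, 47.3, 29.3 and 16.5 points, and for pan H4 41.0, 38.6, 42.0, 31.4 and 22.7 points. The lowest of these, H3K4me3 in the richest quintile, had an interval of 9.19 to 22.3 points. The differences were thus smaller where H3K4me3 was dense. At HFD-only domains the HFD share went from 75.2% in the poorest to 50.5% in the richest quintile for H3K4me3. For total H3 it went from 91.9% to 55.0%, and for pan H4 from 81.8% to 57.7%. At control-only domains it went from 34.8% to 34.6%, from 40.4% to 38.5% and from 40.8% to 35.0%. For H3K4me3 the HFD-only domains of the richest quintile thus had no clear lean to their own diet. For H3K27me3 the differences ranged from −16.4 to 7.29 points, with intervals that include 0 in all 5 quintiles.

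Members tended to lie next to members of the same group. The nearest other member on the chromosome was of the same group for 3544 of 6128 control-only domains (57.8%, 56.6% to 59.1%), a group that makes up 47.4% of all members. It was of the same group for 4111 of 6798 HFD-only domains (60.5%, 59.3% to 61.6%), a group that makes up 52.6%. The median distance between the midpoints of a member and its nearest member was 53.3 kb for control-only and 71.5 kb for HFD-only domains. Of the 2791 windows of 1 Mb with an H4K16Ac domain, 1711 (61.3%) held members of both groups, 746 (26.7%) HFD-only domains alone, 197 (7.06%) control-only domains alone and 137 (4.91%) none. The shares of all members are genome-wide, while the HFD-only to control-only ratio went from 4.72 to 0.565 across the H3K4me3 quintiles. The part of this regional change in the neighbours and windows was not tested.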

How the data were processed

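ChIP-seq peak lists of the E14.5 cortex were analysed for 5 antibodies and both diets, 1 list for the 3 libraries of each. Alignment (bowtie2, to rn6) and peak calling (MACS2) were done by the authors. Options, duplicates and input are not given in the sources used here. Each deposited list holds, for every peak, a whole-number score of 10 times −log10 q. The deposited fold enrichment is a ratio to the local background. Beside it the authors give the −log10 of the q-value and of the p-value. The lists of H4K16Ac and H3K27me3 are broad, with values averaged over the interval. The others are narrow, with the values and position of each summit, and summits of 1 interval were counted once. Samples were grouped by title.

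Computed here were overlaps of at least 1 bp, distances, shares and differences, in Python 3.11.15 (pandas 2.3.3, numpy 2.4.6, scipy 1.17.1, with plots by matplotlib 3.10.9). The interval functions were tested on simulated data. The background pileup of a list was read from its commonest fold enrichment and −log10 p. The diets were not tested against each other, for lack of lists by replicate. The regions named were, in each group, taken from the 5 widest, the 5 of highest −log10 q, the 2 nearest to each limit of the rule on both sides, and the 5 widest with own-diet intervals alone for at least 3 antibodies. The groups and comparisons were chosen with earlier results of these data known. Lists of equal length, other widths, overlaps and thresholds were tried as alternatives, and the ratios by chromosome and window were added after seeing the data. The gene table at hand is of another assembly (GRCr8) and was not used, so no gene is named and no sequence printed.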

Additional observations from a re-analysis of the deposited data

How the results depend on the processing

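No paired analysis was possible because the 3 libraries behind a list were pooled before peaks were called, and for this reason no replicate could be left out either. The numbers of control-only and HFD-only domains, 6142 and 6823, moved most with the rule. They were 12229 and 14039 at a width of at least 500 bp, 631 and 979 at 2000 bp, 21691 and 19354 when less than 50% of the domain had to be covered by the other diet, 21945 and 19776 when only intervals of 1000 bp or more of the other diet counted, and 23 and 21 at −log10 q of at least 5. Under both coverage alternatives the control-only group was the larger, which turned the order of the groups. With q of at most 0.05 in both lists the numbers were 6191 and 5326, also with more control-only domains. Merging intervals less than 500 bp apart changed nothing, since intervals of a list lay at least 1194 bp (control) and 1175 bp (HFD) apart.

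The difference in HFD share of one-diet overlaps between the groups stayed positive for H3K4me3, total H3 and pan H4 under every alternative run. Within the other antibody's intervals of −log10 q of at least 5 it was 69.9 points for H3K4me3 (51.6 to 80.4), 32.5 for total H3 and 16.9 for pan H4, and 16.7 for H3K27me3 (−31.4 to 64.6). With q of at most 0.05 in those lists it was 39.7 for H3K4me3 and 9.58 for H3K27me3. In domains of 1000 to 1500 bp it was 33.8 for total H3 and 33.9 for pan H4, and in domains with q of at most 0.05 it was 41.4 and 41.6. The shares overlapped by the own-diet lists moved beyond their intervals under all 24 alternatives, all downward. Cutting the domain to its central 1000 bp, or the other list to −log10 q of at least 5, could only lower a share. Their direction was thus fixed in advance, unlike that of the band of 1000 to 1500 bp. At −log10 q of at least 5 the shares ranged from 0.0147% (HFD-only, H3K27me3) to 9.57% (HFD-only, pan H4).

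The HFD-only to control-only ratios of chromosome X and of the poorest and richest quintiles, the only ratios recomputed, stayed on their side of 1 under every alternative that gave one, all added after seeing the data. On chromosome X the ratio was 3.30 at 500 bp, 16.7 at 2000 bp, 3.25 with less than 50% covered, 2.77 against intervals of 1000 bp or more and 2.06 with q of at most 0.05. In the poorest quintile of windows it was 13.5 at 2000 bp, 2.14 with q of at most 0.05 and 2.98 against intervals of 1000 bp or more. In the richest it was 0.877 with q of at most 0.05 and 0.375 at −log10 q of at least 5, where chromosome X and the poorest quintile gave no ratio. The causes of these changes were not tested.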

Other observations

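Windows of 1 Mb with the largest surplus of one group were found on several chromosomes and were chosen after their values were seen. On chromosome 3 the window 173000001-174000000 held 13 HFD-only domains among 49 HFD domains and 1 control-only domain among 37. On chromosome 1 the window 147000001-148000000 held 13 among 35 and 1 among 17. On chromosome 2 the window 195000001-196000000 held 12 among 40 and 2 among 32, and the window 1000001-2000000 held 13 among 44 and 3 among 25. On the control side, the window 1000001-2000000 of chromosome 16 held 12 control-only domains among 69 and 2 HFD-only domains among 53, and the window 33000001-34000000 of chromosome 6 held 11 among 52 and 1 among 32. The window 114000001-115000000 of chromosome 7 held 10 control-only domains among 72 and 0 HFD-only domains among 61, and the window 126000001-127000000 of chromosome 1 held 9 among 44 and 0 among 33.

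Chromosome Y and the unplaced sequences carried HFD-only domains in excess. On Y there were 0 control-only domains among 25, for which the Wilson interval reaches 13.3%, and 14 HFD-only domains among 48 (29.2%, 18.2% to 43.2%). On unplaced sequences there were 19 control-only domains among 383 (4.96%) and 131 HFD-only domains among 589 (22.2%), a ratio of 6.89. The intervals of all widths on Y numbered 73 in control and 105 in HFD for H4K16Ac, 69 and 91 for total H3, 76 and 118 for pan H4, 64 and 82 for H3K4me3, and 39 and 31 for H3K27me3.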
